A study of Mus musculus with 16 samples.

Results

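The genes described here carry cholesterol across the membranes of the intestinal epithelium or control that transport. They are 10 of the 48440 genes in the tables and were chosen by symbol: Npc1l1, Scarb1, Abcg5, Abcg8, Abca1, Soat2, Srebf2, Srebf1, Nr1h3 and Nr1h2. RNA-Seq was performed on GFP+ cells sorted from the small intestine of Lgr5eGFP mice, in which the Lgr5 promoter drives EGFP in intestinal stem cells (ISCs) and progenitors. All mice were female, per the methods, and were fed a 60% high-fat diet for 16 weeks before vertical sleeve gastrectomy (VSG), which removes most of the stomach along its greater curvature, or a sham operation that leaves the stomach in place. The methods give an age of 8 to 16 weeks for all animals. With 16 weeks of diet and 4 weeks after surgery, this cannot be the age at sorting. At 4 weeks after surgery the mice were fasted overnight, and cells were taken 15 min after a liquid meal from 6 cm of duodenum, jejunum and ileum. Cells positive for CD45, CD31, annexin V or Sytox Blue were removed before the GFP+ gate. The 16 libraries came from 7 mice: 4 VSG and 2 sham in the duodenum, the same 6 mice in the jejunum, and 2 VSG and 2 sham in the ileum. A replicate number marks the same mouse in every segment within a surgery group, whereas VSG replicate 1 and sham replicate 1 are different animals.

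Cholesterol in the gut lumen enters the enterocyte through NPC1L1, and the heterodimer of ABCG5 and ABCG8 returns sterols to the lumen. SOAT2 esterifies absorbed cholesterol for packing into chylomicrons, and ABCA1 exports it across the basolateral membrane to form HDL. Falling sterol in the endoplasmic reticulum releases SREBP2 to switch on cholesterol synthesis and uptake genes, whereas oxysterols bind the liver X receptors LXRα and LXRβ, which pair with RXR and switch on Abca1, Abcg5, Abcg8 and Srebf1.

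Promoter sequence was available for 8 of the 10 genes (12 RefSeq windows on GRCm38.p6, the mm10 build of the files), and was searched for the response elements of this circuit in the 250 bases before each start. The sequences below are those that hold a match, and each is printed 5′ to 3′ on the strand of its gene, with the match in capitals. The stretch of Srebf2 was ended before the first annotated exon of the gene, which starts inside the searched window, and that of Abcg5 and Abcg8 was kept to the bases between their starts. As printed, none of them overlaps an annotated exon.
Abca1, chr4:53159896-53160145, minus strand: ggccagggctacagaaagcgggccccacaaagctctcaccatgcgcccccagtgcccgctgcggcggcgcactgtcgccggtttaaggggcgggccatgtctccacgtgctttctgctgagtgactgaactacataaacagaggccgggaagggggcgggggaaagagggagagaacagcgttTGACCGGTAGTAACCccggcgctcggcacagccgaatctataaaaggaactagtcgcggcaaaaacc
Srebf1, chr11:60210472-60210721, minus strand: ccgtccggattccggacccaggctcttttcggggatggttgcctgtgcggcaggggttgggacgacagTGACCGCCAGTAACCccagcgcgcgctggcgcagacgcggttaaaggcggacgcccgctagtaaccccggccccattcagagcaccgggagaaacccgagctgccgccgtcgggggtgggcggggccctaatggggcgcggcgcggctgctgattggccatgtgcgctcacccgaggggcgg
Srebf2, chr15:82147019-82147180, plus strand: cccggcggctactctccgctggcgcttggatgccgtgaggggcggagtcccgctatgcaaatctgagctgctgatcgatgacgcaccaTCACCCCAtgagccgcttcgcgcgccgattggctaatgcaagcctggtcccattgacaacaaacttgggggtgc
Abcg5 and Abcg8, chr17:84683012-84683120, plus strand, the 109 bases between the starts of these divergent genes: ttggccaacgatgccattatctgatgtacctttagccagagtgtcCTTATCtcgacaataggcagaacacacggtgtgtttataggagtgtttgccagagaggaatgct
In Abca1 and Srebf1 the capitals mark the direct repeat bound by LXR and RXR (GGTNANNNNNGGTCA, read on the opposite strand), 67 and 182 bases before the start. That Srebf1 start is the most downstream of its 3 RefSeq starts. The motif was present on either strand in 0.177% of 32851 RefSeq windows of the same length. In Srebf2 the capitals mark the core of a sterol regulatory element (TCACCCCA, in 1.34% of windows), and between Abcg5 and Abcg8 a GATA motif (GATAAG, in 6.55% of windows). An E-box (CACGTG, in 6.02% of windows) was also searched and was found in Abca1, 147 bases before the start. The windows of Npc1l1, Nr1h3 and Nr1h2 held none of the 4 motifs. A match is a string of letters and not a measured site.

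Read depth, marker content and exact zeros set the limits of these libraries. The deposited values implied 10.9 to 63.6 M reads per library. Exact zeros occurred in 1 or more libraries for 11.6% of duodenal, 20.2% of jejunal and 36.1% of ileal genes whose mean exceeded 50. The labelled cell type was checked with 9 stem cell markers, whose summed normalized count was 83173 to 170223 in the duodenum and 47271 to 64827 in the jejunum outside sham replicate 1, and 5420 to 20240 in the ileum. In the jejunal sham replicate 1 the sum was 16241 and Lgr5 was listed at 0, as it also was in the ileal sham replicate 1. Markers of other epithelial cells were present in every segment, and 4 of 8 immune markers, with Cd3e, Cd8a and Cd79a among them, were at 0 in all duodenal libraries. The summed immune markers were 176 to 1674 normalized counts in the duodenum after VSG and 27.6 to 207 after sham. Among them Ptprc, the gene of the CD45 used to remove immune cells, measured 276, 114, 1534 and 87.0 after VSG and at most 28.1 in the sham libraries, so the groups did not overlap. Jejunal VSG replicate 1 held 216658 normalized counts of 3 ileal enterocyte markers (Fabp6, Slc10a2 and Fgf15), against 223 and 408 in the jejunal sham libraries. The 6 tuft markers all had a fold change above 0 in the duodenum and the jejunum (4 and 2 at an unadjusted limma p under 0.05), as had the 7 goblet markers (1 and 4). Of 9 stem cell markers 7 and 9 were above 0 (none at that threshold), of 7 Paneth markers 6 and 7 (1 and 1), and of 8 enteroendocrine markers 7 and 3 (none). Of the stroma and endothelium markers tested, 5 of 6 were below 0 in the duodenum (3 at that threshold) and 2 of 4 in the jejunum (none). Over all genes 49.3% and 45.0% were below 0, and 6.27% and 6.04% passed that threshold. The 5 pancreas markers summed to 0 in the duodenal sham libraries and to 0 to 6582 after VSG. The part of these differences in the results below was not tested. Fewer cells of a type and less RNA per cell cannot be told apart in bulk samples.

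The first question was whether any of the transport genes differed between VSG and sham within a segment. A gene was called changed when its limma p was under 0.05, its Benjamini-Hochberg adjusted p under 0.2, its log2 fold change larger than 0.5 in size and its mean above 50. None of the 10 genes was called in any segment, where 0.0237% of 16867 duodenal genes, 0.0126% of 15857 jejunal genes and 0.0% of 13853 ileal genes were. At an unadjusted limma p under 0.05 the count was 2 of 10 in the duodenum (Abcg8 and Scarb1, both lower after VSG), 2 of 10 in the jejunum (Abca1 and Abcg8, both lower) and 0 of 10 in the ileum. At that threshold the background was 6.27% of duodenal, 6.04% of jejunal and 3.28% of ileal genes in either direction, and in the lower direction 3.48% of duodenal and 2.4% of jejunal genes. All 10 genes passed the filter on low values (mean above 10) in every segment. In the duodenum 9 of the 10 fold changes were below 0, with a median log2 fold change of -0.38, beside 49.3% of all genes and a median of 0.01. In the jejunum 7 of 10 were below 0, with a median of -0.75 beside 45.0% and 0.11. In the ileum 5 of 10 were below 0, with a median of 0.02 beside 43.0% and 0.24. The ileal count fell to 2 of 10 when libraries were scaled to the same total and to 4 of 10 after quantile normalization, whereas the duodenal and jejunal counts were the same under these scalings.

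**Figure D1:**
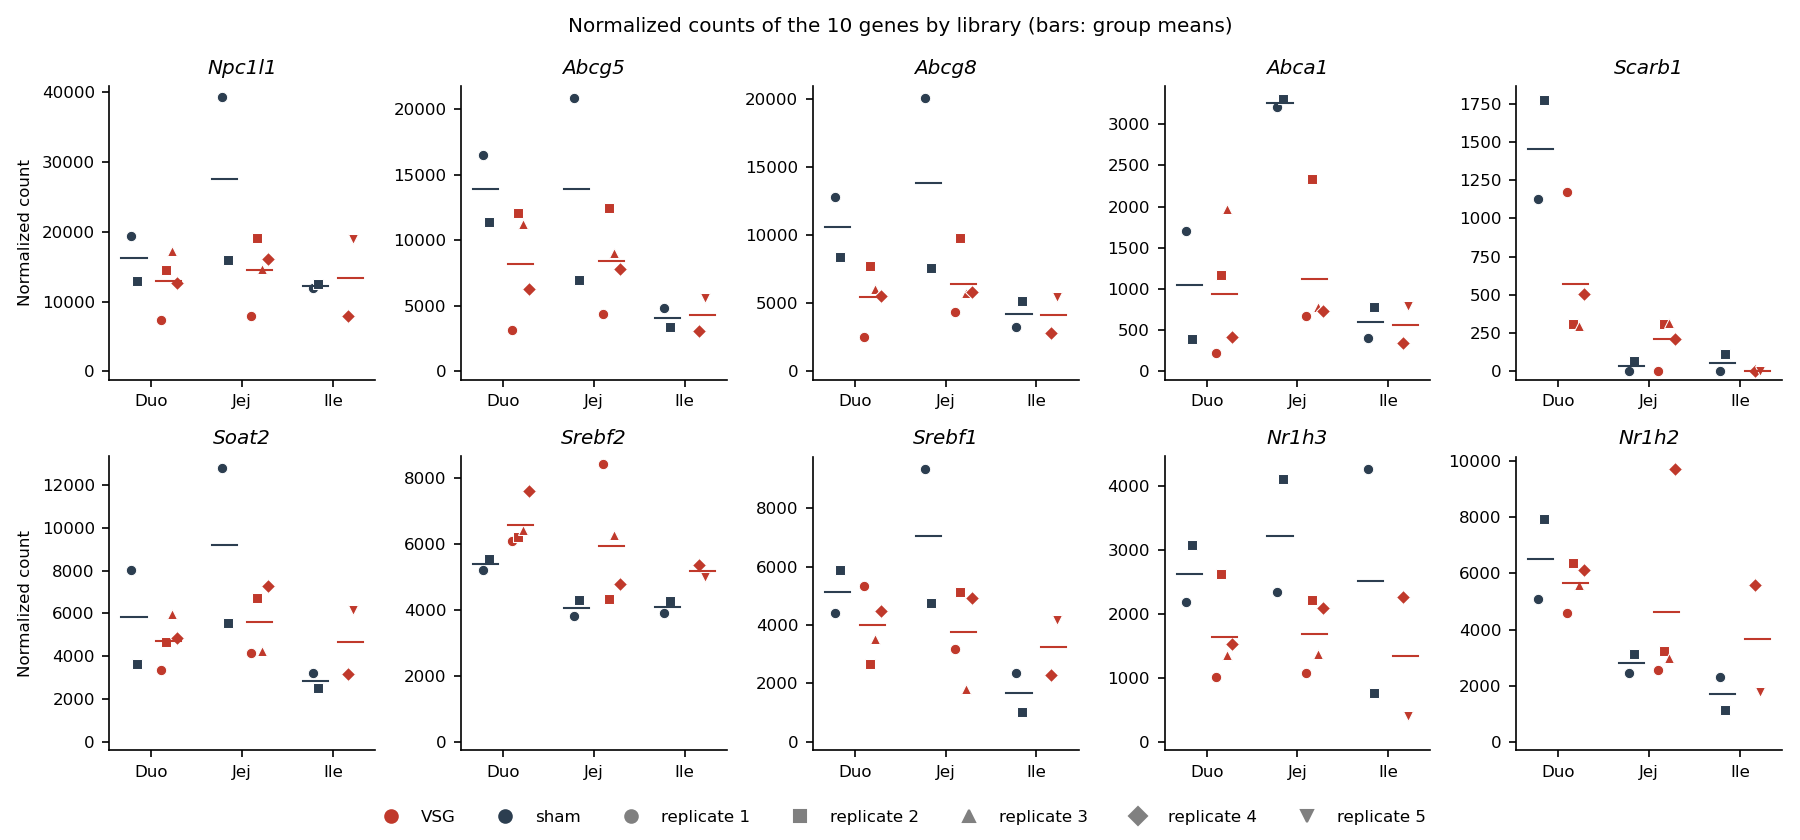
Normalized count (linear axis) of each of the 10 genes in the duodenum (Duo), jejunum (Jej) and ileum (Ile), with 1 point per library, coloured by surgery and shaped by replicate number, and a bar at each group mean. Jejunal sham replicate 1 stands highest of its segment for Npc1l1, Abcg5, Abcg8, Soat2 and Srebf1, and every VSG library lies above every sham library of its segment for Srebf2.

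Npc1l1 (11:6211013-6230143, minus strand), which takes up luminal cholesterol and is the target of ezetimibe, was abundant in every library. In the duodenum its normalized counts were 7339, 14536, 17231 and 12597 after VSG and 19430 and 12924 after sham. The groups overlapped, and the log2 fold change was -0.36 (SE 0.34, limma adjusted p = 0.881). In the jejunum the counts were 7933, 19128, 14695 and 16053 after VSG and 39288 and 15920 after sham. Only sham replicate 1 lay outside the VSG range, and the log2 fold change of -0.86 (SE 0.46, limma adjusted p = 0.760) was -0.21 without it. In the ileum the VSG values of 7918 and 18956 lay on either side of the sham values of 11993 and 12537, with a log2 fold change of 0.00 and a 95% interval of -1.20 to 1.20.

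Scarb1 (5:125277087-125341094, minus strand), which encodes the HDL receptor SR-BI, was low, and highest in the duodenum. There it measured 1169, 307, 299 and 505 after VSG and 1129 and 1776 after sham, with a log2 fold change of -1.55 (SE 0.62, limma adjusted p = 0.720). VSG replicate 1 lay above the lower sham library, so the groups overlapped, and the exact permutation test gave p = 0.2 (two-sided, n = 4 and 2, where the smallest p is 0.0667). In the jejunum Scarb1 was listed at 0 in VSG replicate 1 and sham replicate 1 and measured 311, 319 and 214 in the other VSG libraries and 67.8 in the other sham library. In the ileum 3 of 4 libraries were listed at 0 and sham replicate 2 held 114, and no fold change is given.

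Abcg5 (17:84658234-84683011, minus strand) and Abcg8 (17:84676302-84700333, plus strand) share the intergenic sequence shown above and 82 exonic bases on opposite strands, which is 3.02% of the exon length of Abcg5. The library kit keeps strand, but whether the counting used it is not given in the sources used here. Abcg8 measured 2549, 7750, 6079 and 5550 in the duodenum after VSG and 12848 and 8419 after sham. All 4 VSG libraries were below both sham libraries, an order found in 8.01% of duodenal genes. Its log2 fold change was -1.03 (SE 0.41, limma p = 0.0323, adjusted p = 0.719), with an exact permutation p = 0.2. Abcg5 gave 3152, 12096, 11269 and 6254 after VSG and 16520 and 11385 after sham, with VSG replicate 2 inside the sham range and a log2 fold change of -0.93 (SE 0.49, limma adjusted p = 0.857).

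In the jejunum Abcg8 measured 4337, 9831, 5756 and 5836 after VSG and 20100 and 7625 after sham. Here VSG replicate 2 lay above sham replicate 2, and the log2 fold change was -1.01 (SE 0.45, limma adjusted p = 0.760). Without sham replicate 1 it was -0.31, and without sham replicate 2 it was -1.71 and was called (limma adjusted p = 0.152), a setting in which 2653 of 15857 genes were called and the lone sham library was assumed to vary like the VSG group. Abcg5 in the jejunum measured 4359, 12483, 9012 and 7826 after VSG and 20904 and 7000 after sham. Its log2 fold change of -0.62 (SE 0.51, limma adjusted p = 0.799) became 0.17 without sham replicate 1. In the ileum both genes lay within 0.05 of 0 on the log2 scale, with 95% intervals of -1.19 to 1.27 for Abcg5 and -1.36 to 1.27 for Abcg8. Abcg5 exceeded its partner Abcg8 per kb of exon in 6 of 6 duodenal, 6 of 6 jejunal and 3 of 4 ileal libraries. The ratio was 1.56 to 2.56 in the duodenum, 1.27 to 2.16 in the jejunum and 0.910 to 2.06 in the ileum.

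**Figure D2:**
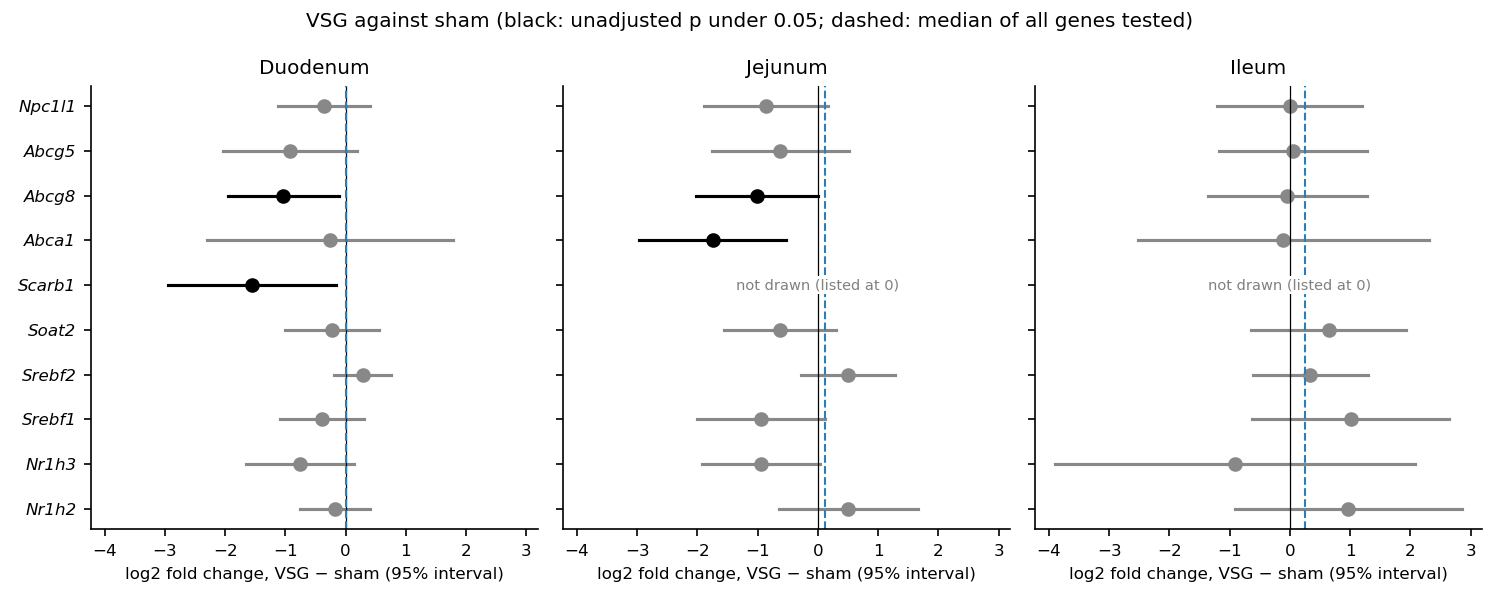
Points show log2 fold changes (VSG minus sham) and lines their 95% intervals from limma, per segment (n = 4 and 2 in the duodenum and jejunum, 2 and 2 in the ileum); black marks an unadjusted p under 0.05, and the dashed line is the median of all genes tested. Scarb1 is not drawn where libraries were listed at 0, and the 4 black intervals (Abcg8 and Scarb1 in the duodenum, Abca1 and Abcg8 in the jejunum) all lie below 0.

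Abca1 (4:53030787-53159895, minus strand), the cholesterol exporter whose promoter holds the LXR motif shown above, had the smallest unadjusted p of the 10 genes. In the jejunum it measured 670, 2329, 780 and 728 after VSG and 3205 and 3309 after sham. In the deposited scaling every VSG library was below both sham libraries, which differed from each other by little, and 6.21% of jejunal genes had this order. The log2 fold change was -1.75 (SE 0.55, 95% interval -2.97 to -0.52, limma p = 0.00975, adjusted p = 0.760), and the exact permutation p was 0.0667, the smallest that 4 against 2 libraries allow. It was -1.77 without sham replicate 1, -1.72 without sham replicate 2 and -1.59 without both VSG replicate 1 and sham replicate 1. In the duodenum Abca1 varied over a wide range in both groups, with 224, 1171, 1970 and 413 after VSG and 1699 and 390 after sham, and its log2 fold change of -0.26 (SE 0.91, limma adjusted p = 0.966) became 0.80 without sham replicate 1. In the ileum it measured 343 and 788 after VSG and 399 and 787 after sham, ranges that overlap almost fully.

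Soat2 (15:102150526-102163469, plus strand) is the sterol O-acyltransferase of enterocytes and hepatocytes. Its duodenal values were 3345, 4670, 5993 and 4858 after VSG and 8011 and 3645 after sham. Its jejunal values were 4167, 6727, 4257 and 7299 after VSG and 12811 and 5535 after sham. In each of these segments the VSG range spanned the lower sham library, and the log2 fold changes were -0.23 (SE 0.35, limma adjusted p = 0.912) and -0.63 (SE 0.42, limma adjusted p = 0.760). In the ileum Soat2 measured 3158 and 6169 after VSG and 3203 and 2501 after sham, with a log2 fold change of 0.64 (SE 0.52, limma adjusted p = 0.736).

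**Figure D3:**
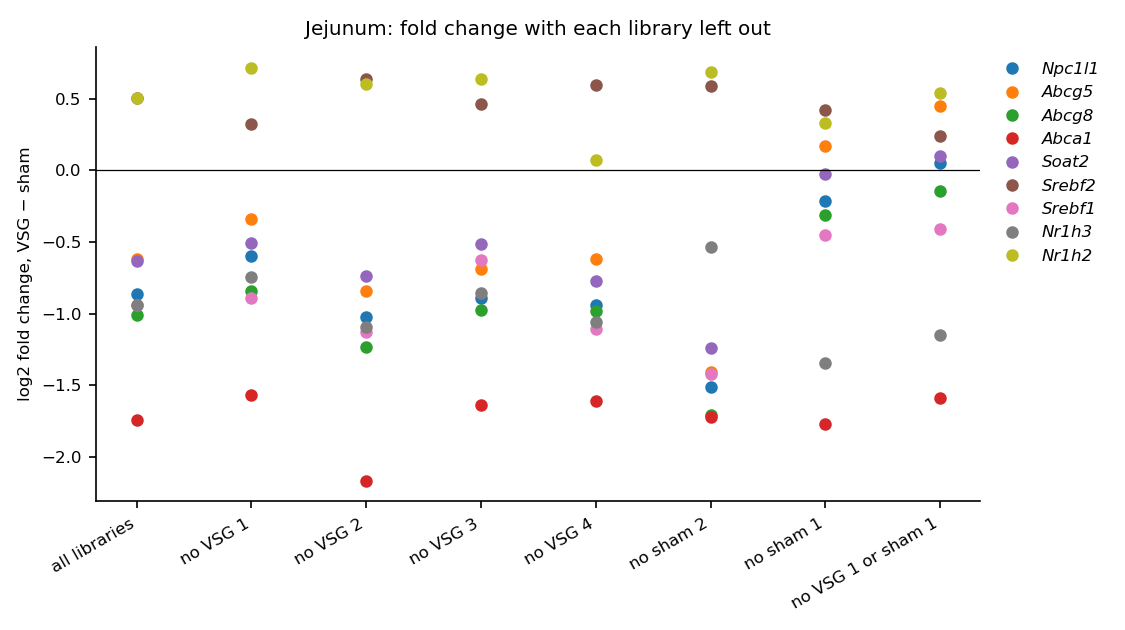
Log2 fold change of VSG against sham in the jejunum for 9 genes (Scarb1 is left out because it was listed at 0) with all libraries and with each library, or VSG replicate 1 and sham replicate 1 together, left out. Npc1l1, Abcg5, Abcg8 and Soat2 move towards 0 or past it without sham replicate 1, whereas Abca1 stays between -2.17 and -1.57.

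Among the regulators, Srebf2 (15:82147181-82205379, plus strand), which encodes SREBP2, had fold changes above 0 in all 3 segments. It measured 6100, 6208, 6410 and 7589 in the duodenum after VSG and 5222 and 5538 after sham. In the jejunum it measured 8417, 4335, 6261 and 4782 after VSG and 3821 and 4290 after sham. In the ileum the values were 5355 and 5007 after VSG and 3917 and 4270 after sham. Every VSG library was above every sham library in all 3 segments, an order found in 6.44%, 6.59% and 17.0% of duodenal, jejunal and ileal genes, and in all 3 segments together in 32 of 12587 genes (0.254%). The segments share mice and are not independent. The jejunal order depended on the scaling. Per 1000000 normalized counts of each library, Srebf2 was 126 in jejunal VSG replicate 2 and 127 in sham replicate 2, so the groups overlapped. In the deposited scaling the log2 fold changes were 0.28 (SE 0.21, limma adjusted p = 0.880), 0.51 (SE 0.35, limma adjusted p = 0.760) and 0.34 (SE 0.39, limma adjusted p = 0.736), and none passed the test. The exact permutation p was 0.0667 for the duodenal, 0.133 for the jejunal and 0.333 for the ileal comparison, the last being the smallest that 2 against 2 allow. With each library left out in turn the log2 fold change was 0.21 to 0.33 in the duodenum, 0.24 to 0.64 in the jejunum, where leaving out VSG replicate 1 and sham replicate 1 together gave the lowest value, and 0.28 to 0.40 in the ileum. In the ileum the median of all genes was itself 0.24 above 0 in the deposited scaling and 0.35 above 0 at the same total, which leaves 0.10 for Srebf2 in both, and 0.36 after quantile normalization. In the jejunum the median of all genes was 0.11 and 0.33 in the first 2 scalings, which leaves 0.39 and 0.41.

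Srebf1 (11:60199089-60222581, minus strand), whose SREBP-1a and SREBP-1c forms cannot be told apart in these gene values, measured 5330, 2661, 3538 and 4493 in the duodenum after VSG and 4401 and 5900 after sham. In the jejunum it measured 3179, 5152, 1828 and 4940 after VSG and 9362 and 4775 after sham. The groups overlapped in both segments, with log2 fold changes of -0.39 (SE 0.31, limma adjusted p = 0.880) and -0.94 (SE 0.48, limma adjusted p = 0.760). The ileal values of 2306 and 4165 after VSG and 2358 and 1010 after sham gave 1.01 (SE 0.66, limma adjusted p = 0.736). Exons of Srebf1 share 109 bases with Rai1 on the opposite strand.

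The LXR genes differed in level and in spread. Nr1h3 (2:91184061-91202834, minus strand), which encodes LXRα, measured 1015, 2618, 1359 and 1532 in the duodenum after VSG and 2180 and 3076 after sham. In the jejunum its values were 1080, 2218, 1367 and 2085 after VSG and 2340 and 4102 after sham. All VSG libraries were below both sham libraries, an order found in 6.21% of jejunal genes. The log2 fold changes were -0.76 (SE 0.40, limma adjusted p = 0.854) and -0.94 (SE 0.44, limma adjusted p = 0.760). The jejunal order depended on the scaling. Per 1000000 normalized counts of each library, VSG replicates 2 and 4 held 64.3 and 61.6, above the 49.7 of sham replicate 1. In the ileum Nr1h3 ranged from 408 to 2264 after VSG and from 764 to 4263 after sham. Nr1h2 (7:44549616-44553951, minus strand), which encodes the more widely expressed LXRβ, measured 4584, 6375, 5571 and 6106 in the duodenum after VSG and 5101 and 7931 after sham. Its log2 fold change there was -0.18 (SE 0.26, limma adjusted p = 0.912). In the jejunum VSG replicate 4 reached 9731 while the other VSG libraries measured 2543, 3244 and 2999 and the sham libraries 2449 and 3136. The ileal library of the same mouse was also high, at 5593, against 1766 in the other VSG library and 2303 and 1123 after sham. Per kb of exon, Nr1h2 exceeded Nr1h3 in 6 of 6 duodenal, 4 of 6 jejunal and 3 of 4 ileal libraries.

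Enterocyte markers were also lower after VSG in the duodenum and jejunum, with no marker called. The summed normalized count of 11 enterocyte markers was 320271 to 656953 in the duodenum after VSG and 754500 to 1133490 after sham, and 551927 to 993222 in the jejunum after VSG and 865461 to 2304280 after sham, where the highest value was sham replicate 1. All 11 markers had a fold change below 0 in both segments, and 7 in the duodenum and 4 in the jejunum had an unadjusted limma p under 0.05 in that direction, with none called. All 11 were above 0 in each group, and the sum in the ileum was 395274 to 694194 after VSG and 699154 to 823061 after sham. Per 100 counts of these markers, duodenal Abcg8 was 0.796 to 1.37 after VSG and 1.12 to 1.13 after sham, ranges that overlap. For Npc1l1 the same quantity was 2.29 to 3.02 after VSG and 1.71 to 1.71 after sham in the duodenum, and 1.39 to 2.66 and 1.70 to 1.84 in the jejunum. Jejunal Abca1 was 0.115 to 0.234 after VSG and 0.139 to 0.382 after sham, with overlap. Srebf2 was 0.976 to 1.90 after VSG and 0.461 to 0.734 after sham in the duodenum, 0.436 to 1.47 and 0.166 to 0.496 in the jejunum, where the groups overlapped, and 0.721 to 1.35 and 0.476 to 0.611 in the ileum. For Soat2 it was 0.824 to 1.17 after VSG and 0.483 to 0.707 after sham in the duodenum, 0.677 to 1.15 and 0.556 to 0.640 in the jejunum, and 0.799 to 0.889 and 0.358 to 0.389 in the ileum, with no overlap in any segment. The marker sums that divide these values were themselves lower after VSG in the duodenum and ileum, without overlap. A gene that fell less than the markers therefore rises on this scale. Before this division the Soat2 groups overlapped in every segment. The share of all genes without overlap on this scale was not computed. The part of enterocyte content in the differences between VSG and sham was not tested.

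**Figure D4:**
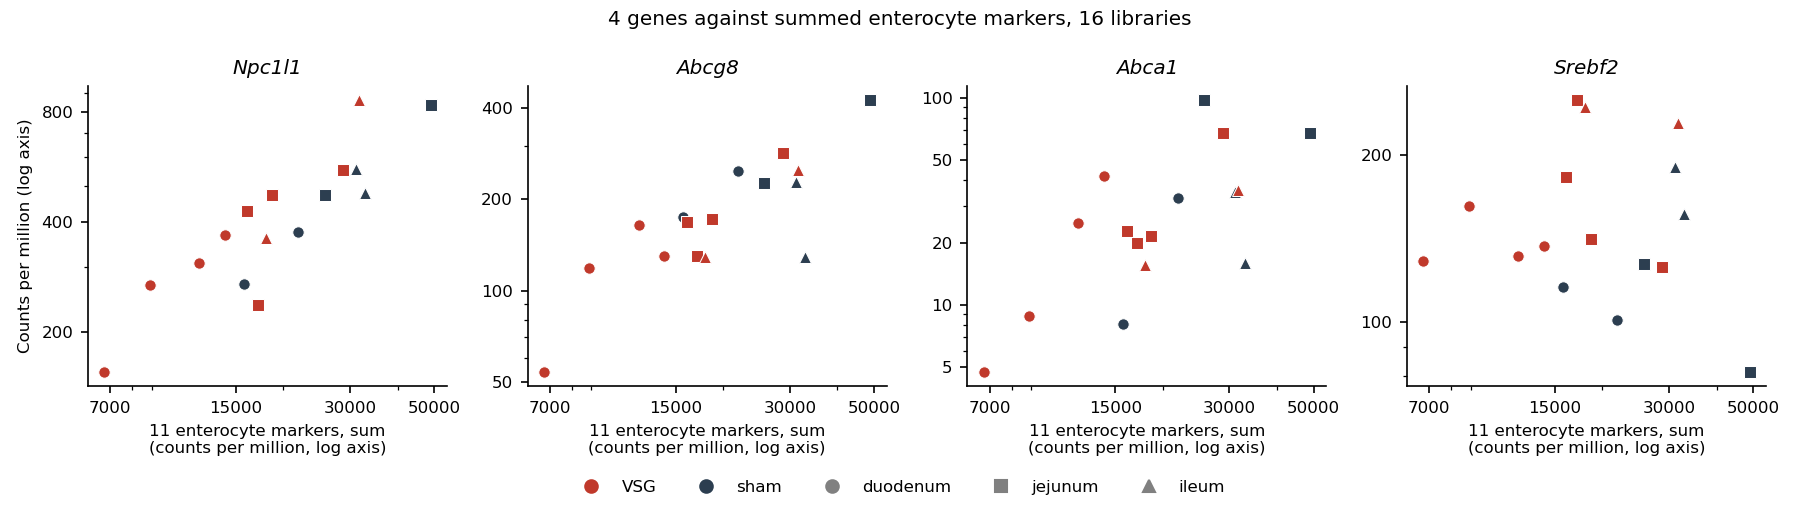
Scaled counts (CPM, library total 1000000) of Npc1l1, Abcg8, Abca1 and Srebf2 against the summed CPM of 11 enterocyte markers in the 16 libraries (both axes logarithmic), coloured by surgery and shaped by segment. Npc1l1 and Abcg8 tend to be higher where the markers are higher, and the marker sum reaches 48920 CPM in jejunal sham replicate 1, where Srebf2 is lowest. Npc1l1 is highest in ileal VSG replicate 5, at 862 CPM against 834 CPM in that jejunal library.

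The genes whose pattern was most like each of 3 members were named by Pearson correlation of log2 values centred within segments, over 16 libraries of 7 mice that share depth and cell content and 10712 genes with a mean above 50 in every segment. For Npc1l1 they were Sis (sucrase-isomaltase, r = 0.96), Ogdh (r = 0.95) and Slc5a1 (the glucose transporter SGLT1, r = 0.95), with Abcg5 at r = 0.90, Abcg8 at r = 0.89 and Soat2 at r = 0.84. For Abca1 they were Gclm (r = 0.80), Sema4a (r = 0.79) and Slc43a2 (r = 0.79). For Srebf2 they were Cd9 (r = 0.88), Nradd (r = 0.84) and Fdps, a farnesyl diphosphate synthase of the cholesterol pathway (r = 0.84), and the correlation with Npc1l1 was negative (r = -0.64). Nr1h3 had almost none with Npc1l1 (r = 0.06) or Abca1 (r = 0.11).

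The other genes of cholesterol handling were read as 6 lists, and no gene of them was called in any segment. The background over all genes tested was a median log2 fold change of 0.01, 0.11 and 0.24 in duodenum, jejunum and ileum, with 49.3%, 45.0% and 43.0% of fold changes below 0 and 6.27%, 6.04% and 3.28% of genes at an unadjusted limma p under 0.05. Of 21 cholesterol synthesis enzymes, the classic targets of SREBP2, 17 had a fold change above 0 in the duodenum (median 0.21), 15 in the jejunum (median 0.55) and 8 in the ileum (median -0.12), and 1, 1 and 0 of them passed an unadjusted limma p under 0.05, which is 1 gene of 21 beside that background. In the duodenum that gene was Lss, lanosterol synthase, with 3007, 1235, 1983 and 1189 after VSG and 743 and 833 after sham (log2 fold change 1.13, SE 0.43, limma adjusted p = 0.681). In the jejunum it was Sqle, squalene epoxidase, with 4235, 1485, 1478 and 2041 after VSG and 192 and 1465 after sham (1.97, SE 0.76, limma adjusted p = 0.760), where the low sham library was replicate 1 and leaving it out gave 0.51. Hmgcs1, a synthase early in the pathway, had log2 fold changes of 0.19, 0.37 and -0.06 in duodenum, jejunum and ileum, with no unadjusted limma p under 0.05.

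From the list of SREBP control and lipoprotein uptake, Lipa, lysosomal acid lipase, was lower after VSG in the duodenum and the jejunum at an unadjusted limma p under 0.05, with log2 fold changes of -1.61 (SE 0.52) and -1.34 (SE 0.57). Without sham replicate 1 these were -1.19 and -0.81. The SREBP retention factor Insig1 had log2 fold changes of 0.41, -0.05 and 0.44 in the duodenum, jejunum and ileum, none at an unadjusted p under 0.05.

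The 5 chylomicron assembly genes all had fold changes below 0 in the duodenum (median -0.66) and in the jejunum (median -1.02), and 3 of 5 in the ileum had one above 0 (median 0.14). In each of the first 2 segments 1 passed an unadjusted limma p under 0.05. In the duodenum it was the apolipoprotein gene Apoa4 (log2 fold change -1.40, SE 0.44), which with Apoa1 is also in the enterocyte marker list. In the jejunum it was Sar1b, a GTPase of chylomicron export, with 2239, 3946, 3200 and 3142 after VSG and 8925 and 4386 after sham (-1.03, SE 0.39, limma adjusted p = 0.760), and without sham replicate 1 the log2 fold change was -0.51. Of 10 genes of NPC1L1 trafficking and sterol transfer, 2, 0 and 0 passed an unadjusted limma p under 0.05 in the duodenum, jejunum and ileum. Both duodenal genes were lower after VSG. Gramd1b, a sterol transfer protein of the endoplasmic reticulum, had a log2 fold change of -1.46 (SE 0.55), or -0.74 without sham replicate 1. The other gene was Pdzk1, a scaffold that holds SR-BI at the membrane, with 758, 1509, 2520 and 1166 after VSG and 10125 and 3868 after sham (-2.21, SE 0.51, limma adjusted p = 0.434). Without sham replicate 1 its log2 fold change was -1.51. Of the 9 other LXR targets and partners 7 were tested, and 0 of them in the duodenum and ileum and 1 in the jejunum had an unadjusted p under 0.05. That gene was Lpcat3, a phospholipid acyltransferase, with -0.72 (SE 0.29). Abcg1 was listed at 0 in 8 of the 16 libraries. Of 10 lipogenic targets of SREBP1, 0, 2 and 1 passed at that threshold in the duodenum, jejunum and ileum, all higher after VSG. The jejunal genes were the desaturases Scd2 (1.95, SE 0.78) and Fads1 (1.62, SE 0.69). Jejunal Fads1 measured 1491, 1974, 1535 and 1971 after VSG and 209 and 1505 after sham, so that the groups overlapped and the low value was sham replicate 1, without which the log2 fold change was 0.20. For Scd2 the values were 5404, 1956, 550 and 1231 after VSG and 451 and 398 after sham, with no overlap, and the log2 fold change without sham replicate 1 was 2.04. Apoa4, Gramd1b, Lpcat3, Scd2 and jejunal Fads1 were named after their values were seen. In the ileum the gene was Fads1, listed at 0 in both sham libraries and at 589 and 220 after VSG.

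The level along the intestine was described after scaling each library to a total of 1000000 normalized counts (CPM), since the segments were normalized separately, and without a test. Npc1l1 had medians of 289, 473 and 518 (scaled counts) in the duodenum, jejunum and ileum, and was higher in the jejunum than the duodenum in 6 of 6 mice, as were Abcg8 (147, 199 and 179) and Nr1h3 (37.4, 55.6 and 68.4). Without that scaling the counts were 5, 4 and 5 of 6 mice, and the ileal medians of Npc1l1 and Nr1h3 were the lowest of the segments instead of the highest. For all genes, the share higher in the jejunum in 6 of 6 mice was not computed. Abca1 had medians of 16.8, 45.1 and 25.5, and Soat2 of 101, 180 and 136, with the jejunum higher in 5 of 6 mice for each under both scales. Nr1h2 went the other way, with medians of 125, 90.2 and 86.2 and a higher jejunal value in 1 of 6 mice, the VSG mouse with replicate number 4. Scarb1 was highest in the duodenum, with medians of 16.3, 4.17 and 0. Its duodenal range of 6.38 to 37.0 did not overlap the ileal range of 0 to 5.06. The share of all genes whose duodenal and ileal ranges lie apart was not computed. Exact zeros were more frequent in the ileum, in 36.1% of genes with a mean above 50 against 11.6% in the duodenum. For Abcg5 (239, 247 and 171), Srebf2 (130, 134 and 209) and Srebf1 (90.4, 144 and 99.6) the jejunum was higher in 5, 3 and 4 of 6 mice, and without the scaling in 4, 1 and 3. Except for that Scarb1 pair, the ranges of every pair of segments overlapped for each gene. Over 12337 genes the median log2 difference of jejunum minus duodenum per mouse was -0.53 to -0.04 after scaling and -0.71 to -0.55 in the deposited values.

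**Figure D5:**
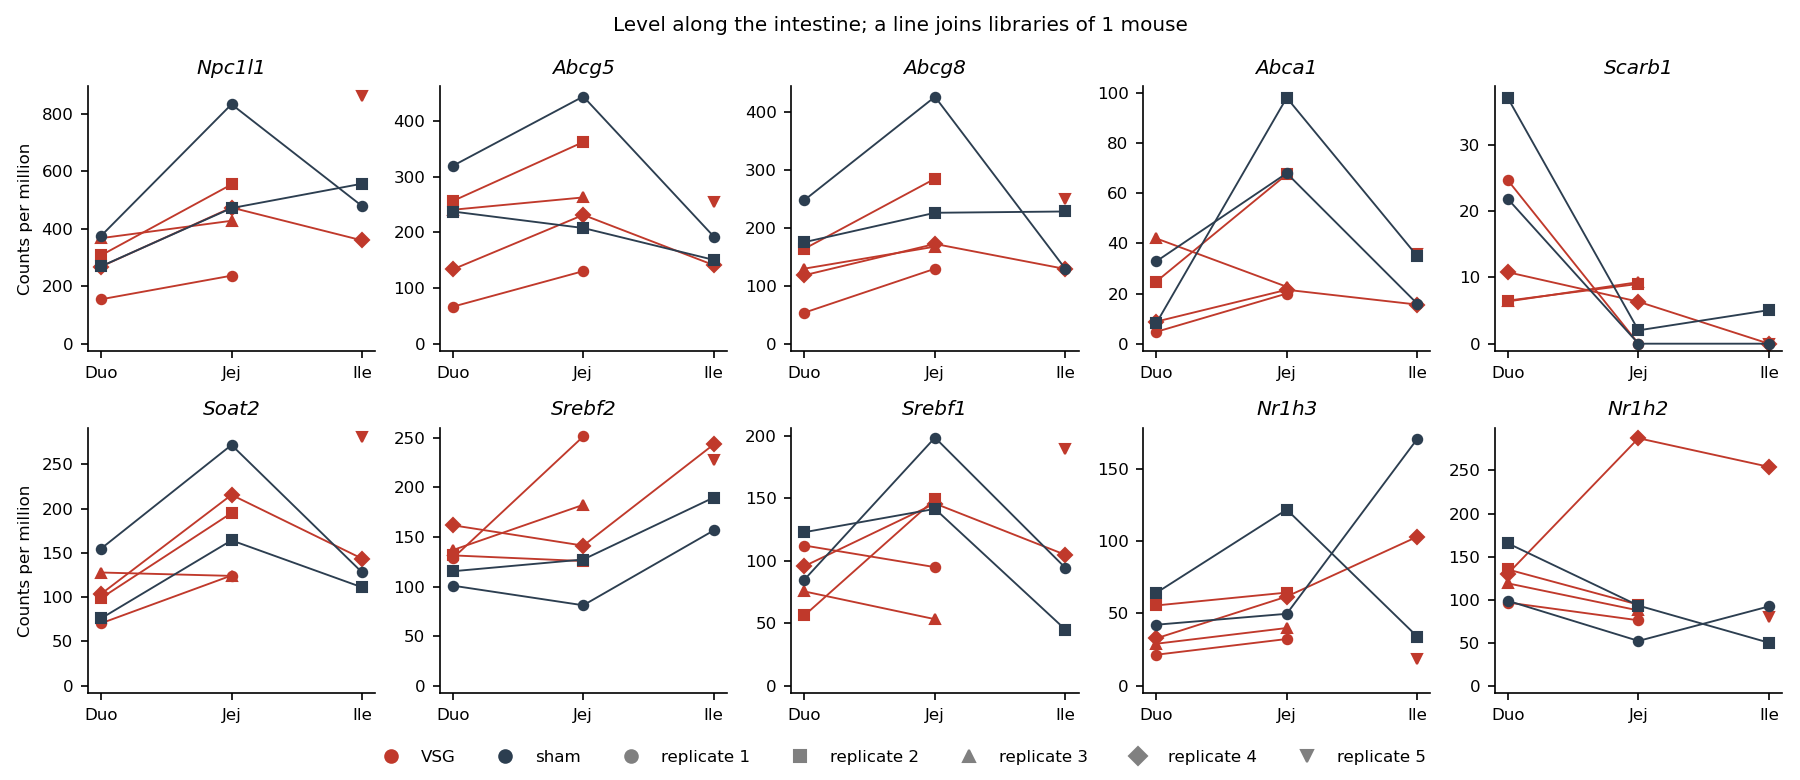
Scaled counts (CPM, linear axis) of the 10 genes in the duodenum, jejunum and ileum; a line joins the libraries of 1 mouse, coloured by surgery and shaped by replicate number. Npc1l1, Abcg8 and Nr1h3 were higher in the jejunum than the duodenum in 6 of 6 mice, and Scarb1 was at 0 in 3 of 4 ileal libraries.

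Per kb of exon, Abcg5 and Npc1l1 were the highest of the 10 genes in the duodenum, with medians of 4177 and 3074 normalized counts per kb, and Npc1l1 exceeded Soat2 in 6 of 6 libraries. Abcg5 exceeded Npc1l1 in 4 of 6, so these neighbours did not differ beyond their spread. Soat2 (2153), Abcg8 (1844) and Nr1h2 (1741) followed, then Srebf2 (857), Srebf1 (789) and Nr1h3 (738), each of the last 3 above the next in 3 of 6 libraries except Nr1h3, which was above Scarb1 (96.1) in 6 of 6. Abca1 was last with 76.4, although Scarb1 exceeded it in only 3 of 6 libraries, and Abcg8 exceeded Nr1h2 in only 2 of 6. In the jejunum and ileum Npc1l1 had the highest median, with 3579 and 2746 per kb, and Scarb1 the lowest, with 16.6 and 0. Npc1l1 exceeded Abcg5, the next gene, in 4 of 6 jejunal and 4 of 4 ileal libraries.

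Whether the difference between VSG and sham itself differed between jejunum and duodenum was tested by subtracting, within each mouse, the duodenal from the jejunal log2 value. None of the 10 genes was called, against 0.0% of 14718 genes, and none had an unadjusted limma p under 0.05, against 4.23%. The difference for Abca1 was -1.49 on the log2 scale (SE 1.06, 95% interval -4.12 to 1.15, limma adjusted p = 0.985), and for Npc1l1 it was -0.50 (SE 0.42, 95% interval -1.56 to 0.55). For Srebf2 it was 0.22 (SE 0.47, 95% interval -0.95 to 1.39). All 4 VSG mice lay below both sham mice for Soat2, an order found in 4.99% of genes, and above both for Nr1h2, found in 6.43%, with log2 differences of -0.41 (SE 0.46) and 0.69 (SE 0.64).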

How the data were processed

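RNA-Seq reads were aligned to mm10 with STAR v2.5.3a and quantified with Salmon v0.6.0. The authors deposited 1 table of signal values per segment, in which the counts of each gene and library had been normalized by DESeq2. Libraries that the authors excluded for low mapping were not used here, nor were the columns of their own comparison (fold changes and p-values). The 10 genes and the gene lists were chosen with earlier results of these data known. Of 48440 identifiers, 48058 matched GENCODE M21, which gave positions and exon lengths. Promoter sequences are from RefSeq (GRCm38.p6).

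VSG and sham were compared per segment with limma 3.58.1 (R 4.3.3), letting the variance follow expression. The response was log2(normalized count + 1), genes needed a mean above 10, and Benjamini-Hochberg adjustment covered all of them. A fold change on this scale understates that of low genes. The study used a count model without covariates, for which limma stands in because the values are not raw counts: 21.8% to 36.4% of values above 0 were whole reads within 0.01 after dividing by the value of 1 read, so depth is approximate. At the same thresholds the paper reported far more changed genes in every segment than limma called here. Exact permutation tests were two-sided over all splits. The fit was also run on simulated counts with the same dispersion for every gene and no outlying library. That run cannot show how the fit behaves on these libraries. Pathway genes were named per segment when they ranked among the 2 highest or 2 lowest fold changes with an unadjusted p under 0.05 and a mean above 50, and Hmgcs1, Insig1 and Abcg1 were always named. Some genes that this rule names, and the counts of the list of SREBP control, are not reported here. Alternatives varied the pseudocount (0.5, 10), the filter, the scaling (same total, quantile), the trend and the adjusted p (0.05), blocked on replicate number, or left out 1 library at a time.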

Additional observations from a re-analysis of the deposited data

Results flagged for a closer look

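Of 20 groups of 4 libraries tested, 2 had a library set apart from the other 3 by more than Dixon's 95% limit, and chance alone flags about 1 in 20 groups. Jejunal Abca1 in VSG replicate 2 was the highest of its group at 11.19 on the log2(normalized count + 1) scale, with a gap of 0.878 of the group's range, and still lay below both sham libraries. Without that library the jejunal log2 fold change was -2.17. Jejunal Scarb1 in VSG replicate 1 was the lowest of its group at 0, with a gap of 0.932 of the range. Scarb1 was also listed at 0 in jejunal sham replicate 1 and in 3 of 4 ileal libraries. VSG replicate 1 held 216658 normalized counts of ileal enterocyte markers, against 223 and 408 in the jejunal sham libraries, and their part in the Scarb1 value was not tested.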

How the results depend on the processing

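No gene of the 10 was called under any alternative except Abcg8 in the jejunum without sham replicate 2. Leaving out 1 library at a time moved the median log2 fold change of the 10 genes between -0.72 and -0.32 in the duodenum, between -1.32 (without sham replicate 2) and -0.12 (without sham replicate 1) in the jejunum, where the count called was 0 to 1, and between -0.11 and 0.45 in the ileum. Leaving out VSG replicate 1 and sham replicate 1 of the jejunum together, an alternative chosen after seeing the data, gave a median of 0.077 and turned Npc1l1 to 0.054, Abcg5 to 0.45 and Soat2 to 0.10. Single libraries also turned Abca1 (-1.32 to 0.80), Soat2 (-0.79 to 0.34) and Nr1h2 (-0.50 to 0.14) in the duodenum, Abcg5 (-1.41 without sham replicate 2 to 0.17 without sham replicate 1) and Scarb1 (-0.016 to 6.09) in the jejunum, and Npc1l1 (-0.63 to 0.63), Abcg5 (-0.38 to 0.47), Abcg8 (-0.52 to 0.43), Abca1 (-0.71 to 0.49) and Nr1h3 (-2.15 to 0.33) in the ileum. Scaling to the same total turned ileal Npc1l1 to 0.11, Abcg8 to 0.064 and Abca1 to 0.0010, and quantile normalization turned Npc1l1 to 0.091. In jejunum minus duodenum, single mice turned Abcg5 (-0.21 to 0.83), Abcg8 (-0.37 to 0.42) and Srebf1 (-1.24 to 0.15). Srebf2 kept a fold change above 0 and jejunal Abca1 one below 0 under every alternative run. Others also kept their direction, among them duodenal Abcg5, Abcg8 and Nr1h3, jejunal Abcg8, Srebf1 and Nr1h3, and ileal Soat2, Srebf1 and Nr1h2. The count of all genes called was 43, 61 and 463 in duodenum, jejunum and ileum without the trend, beside 4, 2 and 0 with it. The replicate block gave 0 called genes among the 10 and 0 among all genes in the duodenum and jejunum. Same-numbered VSG and sham mice are different animals, whose deviations correlated at -0.05 to 0.05, and the ileum shares no 2 numbers. With 2 sham mice per segment, p-values rest on few animals, and in the ileum 2 against 2 cannot go below 0.333 in the exact test.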
